A study of Rattus norvegicus with 2 samples.

Results

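Microglia are the resident macrophages of the brain, and 10 genes that mark them or belong to the complement system were followed in the nucleus of the solitary tract (NTS) of spontaneously hypertensive rats (SHR). The genes were Aif1, Itgam, Cx3cr1, Csf1r, Tmem119, P2ry12, C1qa, C1qb, Trem2 and Ctss. Their probes were found through the transcript accessions that the scanner files give, matched to rat RefSeq genes. All 10 were found, with 12 probes and 40 spots, among 16581 genes named on the array, and all 10 were well above background on both arrays, as were 13433 genes in all. The rule that matched them used gene identity and no measured value, but the 10 genes were chosen with earlier results of these data known.

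The NTS lies in the dorsal medulla and receives signals from the heart, vessels and gut. There were 2 groups, female SHR and male SHR, and both were 9 weeks old, with no treatment named in the labels, and were killed by ether inhalation and decapitation. In each sex RNA of 5 rats was pooled, 100 ng from each, and every pool went to 1 single-colour Agilent array. With 1 array per sex there was no replicate, so no p-value is given, every difference is between 2 pools, and its variation between rats is unknown.

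Signals below are scaled so that the 75th percentile of an array equals 100 (scaled signal), and differences are log2 female minus log2 male. Of 58717 spots outside the controls, 82.3% were well above background in the female pool and 80.1% in the male pool, and none was saturated. The lowest scaled signal called well above background was 0.344 in the female pool and 0.365 in the male pool. Eif2s3y, a Y-linked gene, stayed below the background limit in the female pool and gave a scaled signal of 22.4 in the male pool. Ddx3y, also Y-linked, had a probe below the limit in the female pool and at 6.94 in the male pool, but its other probe was above the limit in both, at 10.2 in the female pool and 24.3 in the male pool. Of 11 measured dorsal medulla markers none was past 1.5-fold. Dbh, which encodes the enzyme that makes noradrenaline, had scaled signals of 381 in the female pool and 399 in the male pool, and Th, which encodes the first enzyme of catecholamine synthesis, had 532 in the female pool and 602 in the male pool.

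Microglia arise from the yolk sac, depend on the growth factor receptor encoded by Csf1r and watch over neurons through receptors such as those of Cx3cr1 and P2ry12. They are also the main source of C1q in the brain, the molecule that starts the classical complement pathway and tags material, synapses included, for uptake by phagocytes. In the NTS they sit among the terminals of visceral afferents.

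The 10 genes were close to equal in the female and male pools, as were most genes of like brightness. None of the 10 was past 1.5-fold in either direction, where 2.3% of all 13433 measured genes were, 1.5% higher and 0.804% lower on the female array, so a count of 0 among 10 is near that background. None was past 1.2-fold either, where 11.8% of all genes were. Within 1.1-fold were 8 of the 10, against 69.6% of all genes; both of these limits were set after the values were seen. The widest difference was 1.13-fold, in Cx3cr1. The shares vary with brightness. With the measured genes divided by mean signal into 4 equal classes, 5 of the 10 were in the brightest class, 3 in the class below it, 2 in the next and 0 in the dimmest. Over all genes, the share within 1.1-fold was 88.6% in the brightest class, 82.1% and 67.4% in the classes below it and 40.5% in the dimmest. So 8 of 10 is near the shares of the classes that held these genes and does not set them apart.

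**Figure D1:**
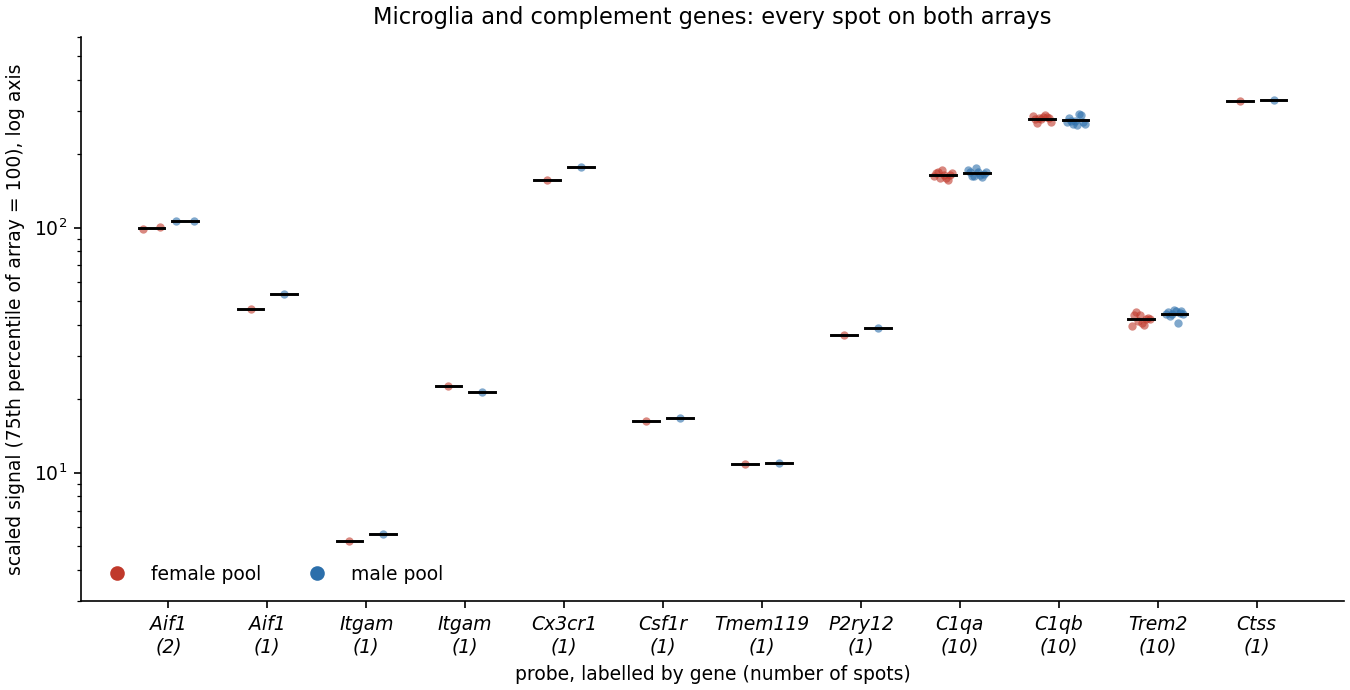
Scaled signal (75th percentile of an array = 100, log axis) of every spot of the 12 probes, female pool left of male pool, with bars at the mean of the log2 values. The repeated spots of C1qa and C1qb overlap between the pools, and the single spot of Cx3cr1 stands lower on the female array.

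The median difference of the 10 genes was -0.037, against 0.016 for all measured genes, a gap of -0.053. Of the 10, 9 were lower on the female array, where 44.5% of all genes were, but 8 of the 10 were higher there when each array was centred on spike-in controls. That centring added 0.099 to every difference, so it moved the median of all genes to 0.11 and that of the 10 to 0.062 and left the gap as it was. Negative differences smaller than that step turn sign with it. The SD over the 10 differences was 0.066, against 0.23 over all genes. Both all-gene values vary with brightness. The SD was 0.13 in the brightest class, 0.16 and 0.20 in the classes below it and 0.36 in the dimmest, which held none of the 10. The class medians ran from -0.0047 in the brightest to 0.053 in the dimmest.

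Among the receptors, Cx3cr1 encodes the receptor for the neuronal chemokine fractalkine. Its scaled signal was 156 in the female pool and 176 in the male pool, from 1 spot each, a difference of -0.17. Of the genes in its brightness class, 6.34% lay further from 0, and their SD was 0.13. The difference was 1.38 times the SD over genes of like brightness. It was smaller than 0.20, the log2 error obtained by combining those that the scanner program gives for the spot on each array. The program's error was near 10% per spot for every probe of the 10 genes, bright or dim. Cx3cl1, which encodes fractalkine itself, stood the other way, at 528 in the female pool and 502 in the male pool, a difference of 0.073.

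Csf1r encodes the receptor for colony stimulating factor 1 and interleukin 34, on which microglia depend for survival. It had scaled signals of 16.2 in the female pool and 16.8 in the male pool, a difference of -0.050 that was 0.32 of the SD in its brightness class. Of its ligands, Il34 was at 112 in the female pool and 98.8 in the male pool, a difference of 0.19. Csf1 was at 7.42 in the female pool and 7.14 in the male pool, and its probes differed in sign, at -0.065 and 0.18.

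P2ry12 encodes an ADP receptor that steers microglial processes toward injury. It had scaled signals of 36.6 in the female pool and 38.9 in the male pool, a difference of -0.089. Tmem119, a membrane protein gene used to tell microglia from other macrophages, was at 10.9 in the female pool and 11.0 in the male pool, a difference of -0.0098. Both had a single spot per array, and both differences were smaller than the SD over genes of like brightness, 0.16 for P2ry12 and 0.20 for Tmem119.

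Trem2 encodes a lipid-sensing receptor of microglia that signals through the adaptor encoded by Tyrobp. It was read by 10 spots, which ranged from 39.7 to 45.0 with a median of 42.3 in the female pool and from 41.0 to 46.2 with a median of 44.6 in the male pool. The ranges overlapped, and 1 of the 10 spot positions was brighter on the female array. The mean difference was -0.076 ± 0.061 (SD over spots), with a standard error of 0.019 that covers spot noise and not rats, pools or labelling. Tyrobp was at 83.4 in the female pool and 89.7 in the male pool, a difference of -0.11.

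Itgam encodes CD11b, which pairs with the product of Itgb2 to form a complement receptor for fragments of C3. Its 2 probes disagreed in sign. The probe for accession NM_012711 read 5.26 in the female pool and 5.64 in the male pool, a difference of -0.10. The probe for accession XM_006230214 read 22.6 in the female pool and 21.3 in the male pool, a difference of 0.084. Their mean was -0.0080, so neither array was higher by both probes. Itgb2 was at 6.30 in the female pool and 6.75 in the male pool, a difference of -0.099.

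Aif1 encodes IBA1, the calcium-binding protein that histologists stain to see microglia. Both of its probes were lower on the female array. The first had 2 spots, at 99.1 and 100.2 in the female pool and 106.0 and 106.4 in the male pool, which did not overlap. The second had 1 spot, at 46.3 in the female pool and 53.8 in the male pool. The probe differences were -0.092 and -0.22, with a mean of -0.15 for the gene, and 8.43% of genes in its brightness class lay further from 0. Aif1 and Cx3cr1 were the 2 of the 10 genes past the SD over genes of like brightness.

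**Figure D2:**
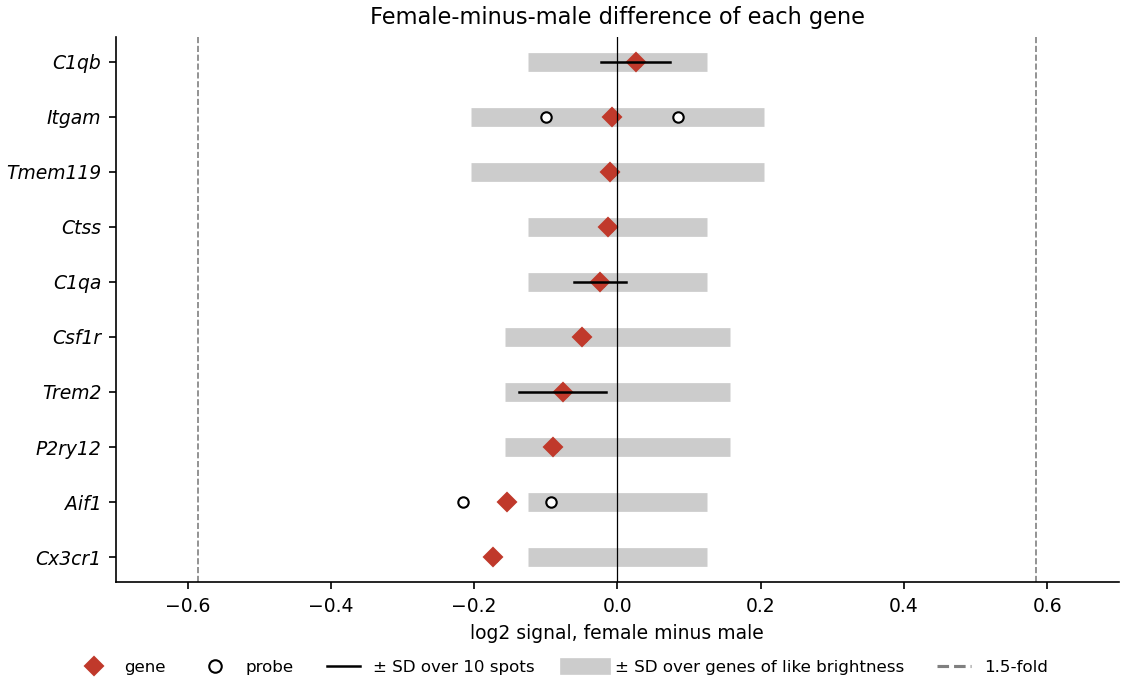
Log2 female minus male of each gene (diamonds), with open circles for single probes, black lines for ± 1 SD over 10 spots and grey bars for ± 1 SD over genes of like brightness. All 10 genes lie well inside the dashed 1.5-fold lines, and Aif1 and Cx3cr1 lie outside their grey bars.

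C1qa and C1qb encode chains of C1q and had 10 spots each, which makes them the best-measured members with Trem2. The C1qa spots ranged from 157 to 171 with a median of 164 in the female pool and from 160 to 175 with a median of 167 in the male pool. The C1qb spots ranged from 267 to 288 with a median of 279 in the female pool and from 262 to 291 with a median of 271 in the male pool. In both genes the spots of the sexes overlapped over most of their range. The mean difference was -0.024 ± 0.036 (SD over 10 spots) for C1qa, with 1 of 10 positions brighter on the female array, and 0.026 ± 0.048 for C1qb, with 6 of 10. The partner chain gene C1qc, read by 1 spot, was at 22.4 in the female pool and 20.4 in the male pool, a difference of 0.14.

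The upstream sequence of these 3 best-measured genes is shown because PU.1, the factor that sets macrophage and microglial identity, binds DNA around the letters GAGGAA. The sequences are the 250 bases before the start in RefSeq's table for build GRCr8, given 5′ to 3′ on the gene's strand, with GAGGAA or its reverse complement in capitals. They lie at chr5:154419934-154420183 (minus strand) for C1qa, chr5:154407828-154408077 (minus strand) for C1qb and chr9:20151780-20152029 (minus strand) for Trem2.
C1qa: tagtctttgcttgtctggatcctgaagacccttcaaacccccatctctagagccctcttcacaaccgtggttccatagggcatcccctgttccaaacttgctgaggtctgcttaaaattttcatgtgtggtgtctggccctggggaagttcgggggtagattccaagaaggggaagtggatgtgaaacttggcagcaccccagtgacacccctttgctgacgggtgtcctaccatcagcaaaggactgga
C1qb: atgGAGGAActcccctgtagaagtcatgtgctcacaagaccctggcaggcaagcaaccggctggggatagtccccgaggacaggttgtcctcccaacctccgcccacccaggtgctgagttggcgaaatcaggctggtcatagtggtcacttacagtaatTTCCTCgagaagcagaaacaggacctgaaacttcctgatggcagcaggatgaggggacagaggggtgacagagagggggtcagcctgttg
Trem2: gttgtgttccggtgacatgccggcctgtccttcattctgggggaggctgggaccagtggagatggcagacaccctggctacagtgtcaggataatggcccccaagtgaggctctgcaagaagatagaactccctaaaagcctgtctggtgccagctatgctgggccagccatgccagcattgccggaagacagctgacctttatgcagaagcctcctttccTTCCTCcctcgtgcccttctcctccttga
An entry was found for 7 of the 10 genes (not for Aif1, Tmem119 and P2ry12). GAGGAA on either strand was in 5 of these 7 windows (C1qb, Csf1r, Ctss, Itgam and Trem2), against 23.3% of 33469 windows of the same length. The AP-1 letters TGANTCA were in 0 of the 7 (6.34% of all windows). Both motifs were searched on both strands, and they cannot overlap. A match is only a match of letters.

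Ctss encodes cathepsin S, a protease of macrophage lysosomes that trims the invariant chain of class II molecules. Its single spot read 327 in the female pool and 330 in the male pool, a difference of -0.013. The other cathepsins and their inhibitors were mostly as close: of 14 measured genes, 12 were within 1.1-fold, and the list median was -0.033. Cst3, which encodes the cathepsin inhibitor cystatin C and is abundant in brain, was at 6480 in the female pool and 6086 in the male pool, a difference of 0.090. The exception past 1.5-fold was Ctsk, a collagen-degrading cathepsin, with 13.2 in the female pool and 44.1 in the male pool, a difference of -1.74, and Ctsc (chosen after its values were seen) was highest at 0.33.

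**Figure D3:**
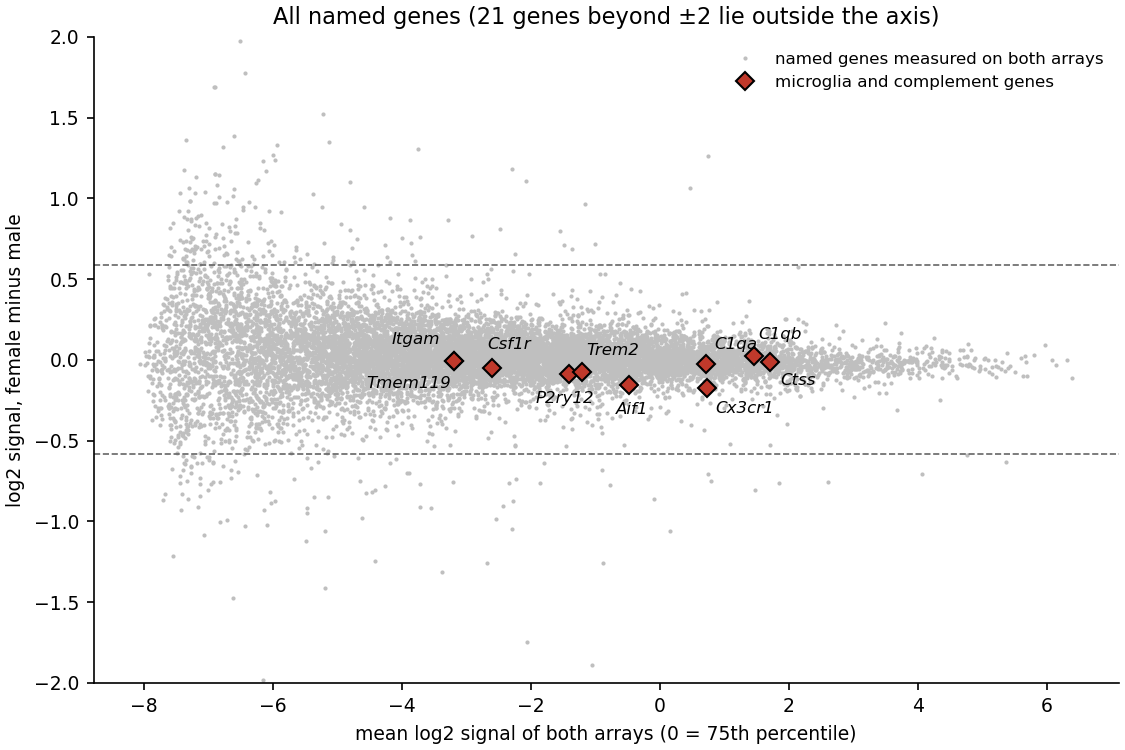
Log2 female minus male of 13433 named genes against their mean log2 signal, where 0 is the 75th percentile. The 10 genes (diamonds) lie inside the 1.5-fold lines, and the spread of all genes widens toward dim genes on the left.

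A list of further microglial genes, not all of them measured, gave 0 genes past 1.5-fold. Of its 18 measured genes, 9 were higher and 9 lower on the female array, with a median of 0.0023, against 14 higher and 4 lower with spike-in centring. The ends of the range were Mertk, a phagocytic receptor gene, at 0.38 and Ly86 at -0.23, both chosen after their values were seen. With normexp background correction Mertk was at 0.18 and Ly86 at -0.23. Siglech, Fcrls, Selplg, Adora3, Golm1 and Cd33 had no named probe, and Lag3 was well above background in the female pool only.

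Among genes common to myeloid cells, too, 0 of 33 measured were past 1.5-fold. Of these, 10 were higher and 23 lower on the female array, with a median of -0.048, against 20 higher and 13 lower with spike-in centring. Laptm5, a lysosomal membrane gene, was at 150 in the female pool and 153 in the male pool. Cyba, a subunit gene of the NADPH oxidase, was at 138 in the female pool and 134 in the male pool. The widest differences, named after their values were seen, were in the toll-like receptor genes Tlr2, at -0.39, and Tlr4, at 0.47. Tlr4 was dim, at 2.37 in the female pool and 1.72 in the male pool. With normexp background correction Tlr4 was at 0.14 and Tlr2 at -0.44. The list of signals to microglia also holds the receptor genes Cd200r1 and Sirpa. In it 0 of 10 were past 1.5-fold and the median was 0.039, from Tgfb1 at -0.26 to Tgfb2 at 0.28, both named after their values were seen. Apoe, on that list too, was at 5083 in the female pool and 5009 in the male pool.

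Along the complement cascade, 2 of 43 measured genes were past 1.5-fold, both of them dim, where 2.3% of all genes were. Within 1.1-fold were 24 of the 43, against 69.6% of all genes, so this group was not closer between the pools than genes at large. In the classical and lectin list, which holds C1qa and C1qb, 0 of 15 measured genes were past 1.5-fold, with a median of 0.0013. C3, the central component on which the pathways meet, was at 39.2 in the female pool and 43.6 in the male pool, a difference of -0.15. C1ql3, which encodes a C1q-like synaptic protein, was at 130 in the female pool and 115 in the male pool, a difference of 0.17. C4b was lowest at -0.22 and C1ql2 highest at 0.21, both named after their values were seen.

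Of 6 measured genes of the alternative and terminal pathway, 1 was past 1.5-fold, and the median was 0.083. It was C9, which forms the membrane pore, and it was dim: 0.471 in the female pool and 0.757 in the male pool, a difference of -0.68 that was -0.24 with normexp background correction. Of 14 measured complement regulators, also 1 was past 1.5-fold, and the median was 0.086. It was Cpn1, a carboxypeptidase subunit gene that was dim too, with 0.918 in the female pool and 0.569 in the male pool, a difference of 0.69 that was 0.10 with normexp. Among genes in the dimmest class as a whole, 7.00% were past 1.5-fold. Serping1, the C1 inhibitor gene, was the lowest regulator at -0.039 and was named after its values were seen. Of the 14 regulators, 11 were higher and 3 lower on the female array, against 14 higher and 0 lower with spike-in centring.

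The complement receptor list, which holds Itgam, had 0 of 8 measured genes past 1.5-fold and a median of -0.045. C3ar1, the receptor gene for the C3a fragment, was at 1.23 in the female pool and 1.07 in the male pool, a difference of 0.20 that was -0.034 with normexp. Its probes were at 0.038 and 0.35. Lrp1, a large endocytic receptor gene, was at 52.9 in the female pool and 52.5 in the male pool, and Cd93 at 13.5 in the female pool and 14.3 in the male pool.

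Genes that microglia raise on activation were read next. Of 19 measured, 1 was past 1.5-fold. The median was -0.061, with 5 higher and 14 lower on the female array, against 11 higher and 8 lower with spike-in centring. The 1 gene was Spp1, which encodes the secreted protein osteopontin and is also made by other cells, with 14.2 in the female pool and 29.3 in the male pool, a difference of -1.05. The chemokine gene Ccl2 was highest at 0.56, named after its values were seen, and was at 0.24 with normexp. As with all these lists, fewer cells of a type and less RNA per cell cannot be told apart in a tissue pool.

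**Figure D4:**
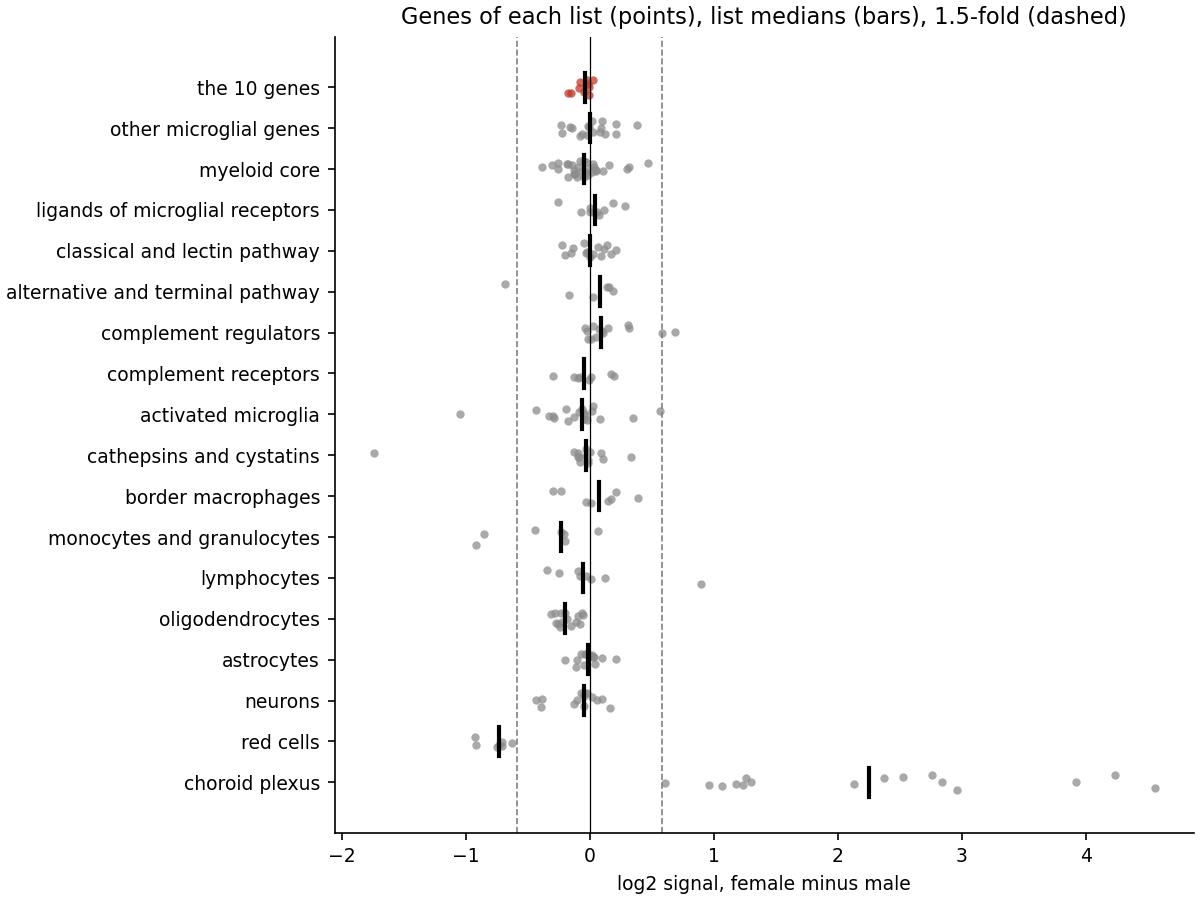
Log2 female minus male of the measured genes of each list (points) with the list median (bar) and the 1.5-fold limits (dashed). The 10 genes sit in a narrow cluster at a median of -0.037, while the red cell and choroid plexus lists stand apart on opposite sides. The list labelled as ligands also holds the receptor genes Cd200r1 and Sirpa.

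Other cells that share these genes, or that the dissection could hold, had the following values. Their lists too were chosen with earlier results of these data known, so the counts past 1.5-fold only describe them. Macrophages at the borders of the brain also express Csf1r, Aif1 and C1q genes. Of their 8 measured markers 0 were past 1.5-fold, the median was 0.075, and the summed scaled signal was 48.7 in the female pool and 46.0 in the male pool. Clec10a was at 9.89 in the female pool and 7.54 in the male pool and Folr2 at 20.0 in the female pool and 20.4 in the male pool. Mrc1, Cd209a and Lilrb4 were not well above background on either array, and F13a1 was lowest at -0.30, chosen after its values were seen.

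Blood leukocytes carry Itgam as well. Of 7 measured monocyte and granulocyte markers, 2 were past 1.5-fold, both lower on the female array, with a list median of -0.23 and a summed scaled signal of 42.0 in the female pool and 50.9 in the male pool. These were S100a8, at 1.64 in the female pool and 3.10 in the male pool, and S100a9, at 2.11 in the female pool and 3.81 in the male pool. With normexp their differences were -0.42 and -0.43, inside 1.5-fold. The monocyte receptor gene Ccr2, Cxcr2, Mmp8 and Mmp9 were not well above background on either array. Lymphocyte markers had a median of -0.056 over 8 measured genes. The summed scaled signal of that list was 35.1 in the female pool and 38.0 in the male pool.

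The red cell list was lower on the female array by a median of -0.73, with 7 of 7 measured genes past 1.5-fold and a summed scaled signal of 4911 in the female pool and 7755 in the male pool. With normexp 5 of the 7 were past it, with Slc4a1 at -0.32 and Alas2 at -0.53, and with spike-in centring 6 were. The choroid plexus list was higher there by a median of 2.25, with 16 of 16 past 1.5-fold and a sum of 10045 in the female pool and 891 in the male pool. With normexp 14 of the 16 were past 1.5-fold and the median was 1.1, and without background correction 15 were past it and the median was 1.33. Oligodendrocyte genes gave a median of -0.20 over 15 measured, astrocytes -0.014 over 14, neurons -0.044 over 15, endothelial and mural cells -0.070 over 15 and meninges 0.14 over 13. Of the meningeal genes, 9 were higher and 4 lower on the female array. Slc47a1 at 1.17 and Igf2 at 0.80 were past 1.5-fold upward and the collagen gene Col1a2 at -0.76 downward. The list's collagen genes Col3a1, at 0.10, and Col1a1, at 0.040 with probes that differed in sign, did not share that fall. With normexp Slc47a1 was at 0.40. With spike-in centring the neuron, astrocyte and endothelial medians were above 0. The part of these cells in the values of the 10 genes was not tested.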

How the data were processed

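RNA pooled by sex was read on 1 single-colour array per sex. The deposited scanner files hold spot intensities, background-corrected by Agilent Feature Extraction (version 9.1 per the submitters' processing notes, 11.5.1.1 per the file headers). The authors' deposited value table holds a linear signal that equals the processed intensity divided by a constant, 23.4 for the female and 22.8 for the male array. Log2 of the processed intensity minus the array's 75th percentile was used. Control spots and spots with outlier flags on either array (363 in the female and 284 in the male pool) were left out, spots of a probe were averaged, and a gene was the mean of its probes well above background on both arrays. Names came from accessions matched to RefSeq (GRCr8); the header names an older build, so no array coordinates are given. No test was possible, so genes were counted past 1.5-fold. Genes of 21 lists were compared: the members and 20 others. Named were all members, partners of members, and per list up to 4 genes past 1.5-fold or else the 2 brightest; some genes of that rule are not reported here. The ends of a list's range were named after values were seen. The members and lists were chosen with earlier results of these data known. The 13 other settings covered background, scaling, filters, gene summary and flags. The calculation was checked on simulated arrays. Tools were Python 3.11.15, numpy 2.4.6, pandas 2.3.3, R 4.3.3 and limma 3.58.1.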

Additional observations from a re-analysis of the deposited data

How the results depend on the processing

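All 13 other settings, each planned, gave 0 of the 10 genes past 1.5-fold, as did both other planned fold limits. The median of the 10 was 0.062 after centring on spike-in controls and between -0.069 and -0.037 otherwise, and its gap to the median of all genes lay between -0.069 and -0.051. Aif1 and Cx3cr1 were lower in the female pool in all 13, Aif1 from -0.19 to -0.055 and Cx3cr1 from -0.20 to -0.075. The other 8 genes changed sign in at least 1 setting. Of 1313 other values, for single genes and list medians under other settings, 135 moved by more than their spread (SD over repeated spots or over a list's genes), 65 of them with spike-in centring and 31 with normexp, and no gene past 1.5-fold turned its sign. Normexp used each spot's median signal, since the scanner files used here hold no spot mean. No paired analysis was possible because the design holds a lone array for females and a lone array for males. Precision is limited by having 1 array per sex; the median SD of a difference over repeated spots was 0.038 in the brightest and 0.19 in the dimmest class of genes.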

Other observations

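A few macrophage genes passed the background limit in 1 pool only, and all were chosen after their values were seen. Each fold below is the plain ratio of dim readings from both pools and not a lower bound. The lowest scaled signal called well above background was 0.344 in the female pool and 0.365 in the male pool. The similarly dim C9 and Cpn1 moved inside 1.5-fold with normexp, to -0.24 and 0.10. The scavenger receptor gene Msr1 gave a scaled signal of 0.905 in the female pool. Its male reading, not called well above background, was 0.374, a ratio of 2.42. Nos2, the inducible nitric oxide synthase gene, gave 0.700 in the female pool by the probe that was brighter there of its 2. The male reading of that probe, also not called well above background, was 0.382, a ratio of 1.83. Cst7, of the activated microglia list, gave 0.446 in the female pool. Its male reading of 0.174 was below the lowest signal called well above background. Tlr7, a receptor gene for single-stranded RNA, gave 0.505 in the male pool. Its female reading, not called well above background, was 0.397, which was 1.27-fold lower.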
